A study of Mus musculus with 6 samples.

Results

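The protein components of the cytosolic ribosome were examined in cultured ovaries of 3-day-old mice. They were taken from the deposited count table as the protein-coding rows whose symbol is an Rpl, Rplp, Rps or Rpsa name, including a short suffix for a paralogue, which gave 85 of 27098 rows. Of these, 54 belong to the large subunit and 31 to the small subunit. The study compared ovaries kept for 2 h in DMEM/F12 medium with 2% PRP (platelet-rich plasma; PRP 1 to 3) with ovaries kept for 2 h in the same medium without it (control 1 to 3). The medium of both groups contained 1% antibiotics, and the series text describes the plasma as human and activated with thrombin and its purpose as the activation of primordial follicles. No control with thrombin or with another plasma is named in the labels, and no strain is given. Whether the libraries of a group came from separate cultures or animals is not stated either, and the p-values therefore cover only how far these libraries differ, which could be technical.

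The cytosolic ribosome is built of a large subunit, which forms peptide bonds, and a small subunit, which reads the messenger RNA. Most of their proteins are needed in about equal number. Messenger RNAs of ribosomal proteins characteristically begin with a C followed by a run of C and T bases, the terminal oligopyrimidine (TOP) motif, through which mTOR and Larp1 adjust their translation and stability together. In the ovary, mTOR signalling in granulosa cells and oocytes is known for its part in the activation of primordial follicles, and a growing oocyte stores large numbers of ribosomes.

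Pyrimidine runs at the transcription start are shown because they are the best-known feature that these genes share beside their products. Each line gives 30 bases of the gene's own strand from RefSeq (GRCm38.p6), of which 15 lie before the annotated start, with capitals marking a C followed by at least 4 bases that are each C or T and starting within 5 bases of the annotated start. The first 6 genes are members with a run, and the last 3 are paralogues without one starting within 5 bases of the annotated start. Rpl10l and Rpl39l hold such letters farther before the start. The examples do not part paralogues from other members. The paralogues Rpl22l1 and Rps27l have a run, and Rpl5, Rpl11, Rplp0, Rps3 and Rps19 have none by this rule.
Rps6: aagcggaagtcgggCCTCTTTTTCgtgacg
Rpl35: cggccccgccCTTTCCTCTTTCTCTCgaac
Rpl15: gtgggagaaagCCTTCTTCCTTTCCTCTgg
Rpl27a: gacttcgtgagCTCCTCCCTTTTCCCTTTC
Rplp2: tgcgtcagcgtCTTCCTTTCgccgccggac
Rps10: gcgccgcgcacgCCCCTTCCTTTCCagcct
Rpl10l: tttggcctccattttgcggctggcggtggg
Rpl39l: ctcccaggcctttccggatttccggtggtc
Rpl7l1: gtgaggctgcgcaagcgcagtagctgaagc

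These windows lie at chr4:86857353-86857382 (Rps6, minus strand), chr2:39005117-39005146 (Rpl35, minus strand), chr14:18270972-18271001 (Rpl15, minus strand) and chr7:109519180-109519209 (Rpl27a, plus strand). The others lie at chr7:141447636-141447665 (Rplp2, plus strand), chr17:27635230-27635259 (Rps10, minus strand), chr12:66284387-66284416 (Rpl10l, minus strand), chr16:10170213-10170242 (Rpl39l, plus strand) and chr17:46782642-46782671 (Rpl7l1, minus strand). Of the 64 members with such a window, 29 (45.3%) held a run on the gene's strand, against 19.8% of the windows of 14581 other protein-coding genes and 18.5% of all 27025 windows. On the opposite strand, the shares were 7.81% of members, 22.6% of the other protein-coding genes and 21.1% of all windows. A run in a window is a match of letters and not a measured start. A window without one says only that no such run starts within 5 bases of the annotated start.

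Totals were 36037111 to 36568367 counts in PRP libraries and 35568000 to 35825931 counts in control libraries, and no pair of libraries was a duplicate. Oocyte, granulosa and stromal marker genes had counts in every library, and all 7 oocyte and 6 granulosa markers looked for were in the table. No gene of the table passed the edgeR quasi-likelihood test of PRP against control (0% of 17475 genes tested, adjusted p under 0.05), and 557 had an unadjusted p under 0.05. A fit with replicate number as a blocking term called 21 genes (0.12%), and none of these 21 was among the 85.

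Large subunit genes together held 2.40%, 2.17% and 2.29% of all counts in PRP 1 to 3, against 2.15%, 2.06% and 2.09% in control 1 to 3. Small subunit genes held 1.59%, 1.47% and 1.52% in PRP 1 to 3, against 1.45%, 1.40% and 1.40% in control 1 to 3. In both subunits every PRP library lay above every control library, with PRP 1 the highest and PRP 2 the closest to the controls. The means were 2.29% ± 0.114 in PRP libraries and 2.10% ± 0.0490 in control libraries for the large subunit (SD, n = 3 each). For the small subunit they were 1.53% ± 0.0617 in PRP libraries and 1.42% ± 0.0296 in control libraries (SD, n = 3 each). The ratio of PRP to control was thus 1.09 for the large and 1.08 for the small subunit, and the counts of the large subunit over those of the small subunit gave 1.48 to 1.51 in PRP libraries and 1.47 to 1.49 in control libraries. In bulk samples, fewer cells of a type and less RNA per cell cannot be told apart.

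**Figure D1:**
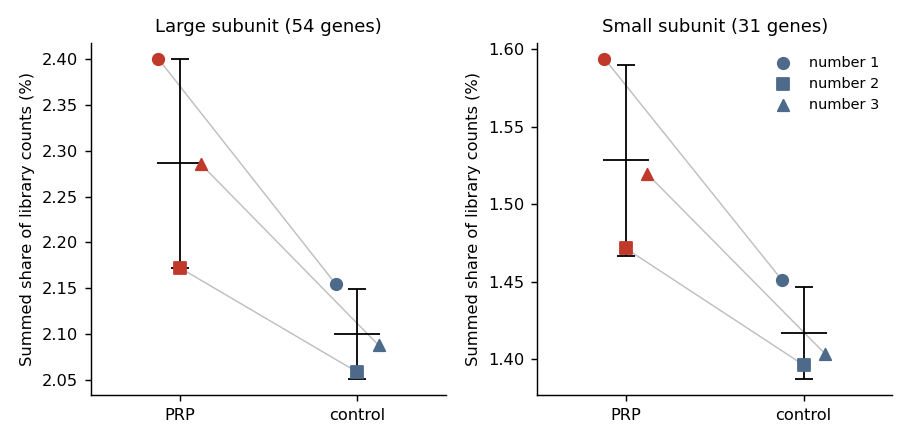
Share of all counts held by large subunit and by small subunit genes (vertical axis, percent of counts; the axis does not start at 0) in each PRP and control library, with the replicate number by marker the group mean and SD as black lines and libraries of the same number joined in grey. The large subunit spans 2.17% to 2.40% in PRP libraries and 2.06% to 2.15% in control libraries, and the small subunit 1.47% to 1.59% in PRP libraries and 1.40% to 1.45% in control libraries.

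Of the 85 genes, 84 had enough counts to be tested. The exception was Rpl3l, the paralogue of Rpl3 known from heart and skeletal muscle, with 4, 0 and 1 counts in PRP 1 to 3 and 2, 1 and 0 counts in control 1 to 3. The log2 fold change of PRP over control was above 0 for 49 of 53 large subunit genes, with a median of 0.12 (8.55% higher), and for 30 of 31 small subunit genes, with a median of 0.11 (8.03% higher). Over all genes tested, 50.4% lay above 0 and the median was 0.00. Within replicate numbers 1, 2 and 3, the large subunit medians were 0.14, 0.08 and 0.13 and the small subunit medians 0.13, 0.07 and 0.12 on the log2 scale. No member passed on its own, with an adjusted p of 0.9998 for every member in the edgeR quasi-likelihood test and a lowest adjusted p of 0.125 with the replicate block.

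The members differed little in how far PRP and control lay apart. The quartiles of the log2 fold change over the 84 tested genes were 0.09 and 0.13. The 72 members with a mean above 100 CPM (counts scaled to library size) had quartiles of 0.09 and 0.13 around a median of 0.12, whereas the 2720 other genes above 100 CPM had quartiles of -0.08 and 0.04 around a median of -0.02. All PRP libraries lay above all control libraries for 18 of 53 large subunit genes and 11 of 31 small subunit genes, against 4.34% of all genes tested. The reverse, all PRP libraries below all control libraries, held for 0 members and for 4.87% of all genes. The PRP library was higher within all 3 replicate numbers for 41 large and 26 small subunit genes, against 16.8% of all genes. An unadjusted p under 0.05 with a higher level in PRP was found for 11 large and 3 small subunit genes (1.25% of all genes), and with the replicate block for 35 large and 21 small subunit genes (5.31% of all genes). Without PRP 2, the lowest PRP library of both subunits, the groups were free of overlap for 64 members, against 11.3% of all genes with the same libraries. Removing the PRP library closest to the controls by itself favours such a count. Leaving out any other single library gave 30 to 41 members, against 7.71% to 9.41% of all genes. Members are not independent of each other, and these counts carry no test.

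Among large subunit genes, those with the smallest p-values in the unpaired fit were Rpl36, Rpl39, Rpl7a, Rpl32, Rpl15 and Rpl35. Rpl36 (chr17:56610094-56614246) had 317, 292 and 314 CPM in PRP 1 to 3, against 265, 273 and 278 CPM in control 1 to 3. The groups did not overlap, and the log2 fold change was 0.18 ± 0.06 (SE; 95% interval 0.05 to 0.31; edgeR adjusted p = 0.9998). Rpl39 (chrX:37082518-37085222), a very short protein that lines the tunnel through which the new chain leaves, had 251.4, 222.2 and 242.3 CPM in PRP libraries, against 221.7, 202.1 and 206.2 CPM in control libraries. Its lowest PRP library lay just above its highest control library, and its log2 fold change was 0.18 ± 0.07 (SE; 95% interval 0.03 to 0.34; edgeR adjusted p = 0.9998). Rpl7a (chr2:26910685-26913312) had 632, 617 and 638 CPM in PRP libraries, against 584, 563 and 572 CPM in control libraries, a clear gap between groups. Rpl32 (chr6:115805514-115808743) had 537, 514 and 514 CPM in PRP libraries and 476, 479 and 475 CPM in control libraries, and the control libraries were closer to each other than to any PRP library. Rpl15 (chr14:18267823-18270986) had 417, 400 and 398 CPM in PRP libraries and 379, 357 and 371 CPM in control libraries, and Rpl35 (chr2:39001581-39005131), which sits at the exit of that tunnel, had 498, 459 and 471 CPM in PRP libraries and 444, 431 and 430 CPM in control libraries. These 4 genes had log2 fold changes of 0.13 each.

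The stalk of the large subunit, which recruits elongation factors, is formed by Rplp0, Rplp1 and Rplp2. Rplp1 had 753, 655 and 683 CPM in PRP libraries, against 644, 614 and 635 CPM in control libraries. Rplp2 had 389, 341 and 373 CPM in PRP libraries, against 334, 328 and 346 CPM in control libraries. Groups did not overlap for Rplp1 and overlapped at 1 library each for Rplp2, with log2 fold changes of 0.14 ± 0.06 and 0.13 ± 0.06 (SE). Rplp0, the base of the stalk and a common reference gene for quantitative PCR, had 723, 553 and 843 CPM in PRP libraries and 630, 592 and 883 CPM in control libraries. Its order followed the replicate number, with number 3 the highest and number 2 the lowest in both groups, and its log2 fold change was 0.01 ± 0.21 (SE).

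Rpl5 and Rpl11 bind Mdm2 when they are free of the ribosome and so stabilise p53. Rpl5 had 890, 813 and 850 CPM in PRP libraries, against 817, 748 and 759 CPM in control libraries, so that the groups overlapped at PRP 2 and control 1 (log2 fold change 0.14 ± 0.06, SE). Rpl11 had 517, 481 and 501 CPM in PRP libraries, against 478, 447 and 451 CPM in control libraries, without overlap (0.12 ± 0.06, SE). Rpl38 and Rpl24, whose mouse mutants have skeletal defects (tail short, and belly spot and tail), had log2 fold changes of 0.05 ± 0.06 and 0.10 ± 0.05 (SE), and only Rpl24 was free of overlap. Rpl10, which joins the large subunit late, had 842, 723 and 799 CPM in PRP libraries and 748, 665 and 736 CPM in control libraries, and Rpl3, at the peptidyl transferase centre, had 800, 786 and 714 CPM in PRP libraries and 736, 757 and 597 CPM in control libraries. The groups overlapped for both genes, with log2 fold changes of 0.14 ± 0.07 and 0.14 ± 0.09 (SE). Rpl28, named after its values were seen, had the lowest p-value of all members with the replicate block. It had 584, 498 and 558 CPM in PRP libraries and 522, 443 and 487 CPM in control libraries, which overlapped across numbers, and was higher in PRP within each number (blocked log2 fold change 0.18 ± 0.04, SE; edgeR adjusted p = 0.125).

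Among small subunit genes, Rps25, Rps20, Rps10, Rps21, Rps19 and Rps16 had the smallest p-values in the unpaired fit. Rps25 (chr9:44407714-44410406) had 429, 419 and 417 CPM in PRP libraries, against 394, 378 and 385 CPM in control libraries. Rps20 (chr4:3831584-3835655) had 517, 478 and 499 CPM in PRP libraries, against 464, 448 and 450 CPM in control libraries. Rps10 (chr17:27630415-27635244) had 370, 343 and 364 CPM in PRP libraries, against 324, 319 and 338 CPM in control libraries. The groups did not overlap for any of these 3 genes, and the log2 fold changes were 0.13 ± 0.05, 0.13 ± 0.06 and 0.14 ± 0.06 (SE; edgeR adjusted p = 0.9998 for each). Rps21 and Rps16 were also free of overlap, with log2 fold changes of 0.14 and 0.13. Rps19 is the gene most often mutated in human Diamond-Blackfan anaemia. It had 557, 482 and 521 CPM in PRP libraries and 489, 469 and 462 CPM in control libraries. Its groups overlapped at PRP 2 and control 1 (log2 fold change 0.14 ± 0.07, SE).

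Rps6, the substrate of S6 kinase and a common readout of mTOR activity as a phosphoprotein, had 630, 585 and 608 CPM in PRP libraries and 576, 559 and 588 CPM in control libraries. PRP 2 lay below control 3, and the log2 fold change was 0.08 ± 0.05 (SE). Rpsa, also known as the laminin receptor precursor, had 1029, 1126 and 1083 CPM in PRP libraries and 1004, 1047 and 1065 CPM in control libraries, which overlapped (0.06 ± 0.06, SE). Rps27a, made as a fusion to ubiquitin, had 544, 536 and 552 CPM in PRP libraries and 529, 508 and 495 CPM in control libraries, without overlap (0.09 ± 0.05, SE). Rps3, at the entry of the messenger RNA channel, and the X-linked Rps4x had log2 fold changes of 0.10 ± 0.07 and 0.14 ± 0.09 (SE), with overlapping groups for both. Rps26, near the exit of the channel, was the only small subunit gene with a log2 fold change below 0. It had 269, 417 and 283 CPM in PRP libraries and 322, 394 and 265 CPM in control libraries, highest in number 2 of both groups (-0.02 ± 0.21, SE).

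Levels per kilobase of transcript, in which genes can be compared with each other, were highest for Rpl41, the shortest ribosomal protein, with 1395 CPM per kb in PRP and 1311 CPM per kb in control libraries. Rplp1 followed with 1397 CPM per kb in PRP and 1265 CPM per kb in control libraries, and was above Rpl41 in the PRP mean. In the small subunit, Rps14 stood first with 1197 CPM per kb in PRP and 1100 CPM per kb in control libraries, followed by Rps15 and Rps4x. The median was 505 CPM per kb in PRP and 460 CPM per kb in control libraries for the large subunit, and 721 CPM per kb in PRP and 656 CPM per kb in control libraries for the small subunit. The lowest of the tested genes was Rpl32l, at 2.26 CPM per kb in PRP and 2.39 CPM per kb in control libraries. Rps20 was low on this scale (134 CPM per kb in PRP and 123 CPM per kb in control libraries) because the annotated transcript used for its length has 3706 bases.

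Paralogues of subunit proteins stood apart in level from the genes they resemble. Rpl10l is a retrogene known for its part in mouse spermatogenesis. It had 22.5, 38.7 and 22.3 CPM in PRP libraries and 29.8, 34.4 and 21.2 CPM in control libraries. Rpl39l, known from mouse testis, had 14.7, 20.7 and 15.5 CPM in PRP libraries and 17.5, 17.7 and 14.3 CPM in control libraries. Both were present in every library with overlapping groups, at log2 fold changes of -0.03 ± 0.26 and 0.04 ± 0.16 (SE). Per kilobase, Rpl10l reached 27.2 CPM per kb in PRP and 27.8 CPM per kb in control libraries, where Rpl10 reached 986 CPM per kb in PRP and 896 CPM per kb in control libraries. Rpl22l1, Rpl36al, Rpl7l1 and Rps27l had log2 fold changes of 0.07, 0.05, -0.02 and 0.06, where Rpl22, Rpl36a, Rpl7 and Rps27 had 0.06, 0.14, 0.13 and 0.09. Of the 6 paralogues tested, 4 lay above 0 (50.4% of all genes), 0 had every PRP library above every control library (4.34% of all genes), and the median log2 fold change was 0.04. With 6 genes, these counts lie near the shares over all genes. Of the other 78 tested members, 75 lay above 0, 29 were free of overlap and the median was 0.12. They include Rpl32l (-0.08) and Rpl6l (0.17), near-identical copies of Rpl32 and Rpl6 that were not listed as paralogues. The difference between these medians was not tested.

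Most members varied little within a group, and a few did not. The median within-group standard deviation of the members was 0.07 on the log2 CPM scale, against 0.08 for other genes above 100 CPM. Members above 0.2 included Rpl21, Rpl34, Rpl26, Rpl32l, Rpl10l, Rps26, Rplp0, Rpl39l and Rpl30, named after their values were seen. Rpl34 had 102, 30.3 and 58.9 CPM in PRP libraries and 66.5, 32.7 and 27.6 CPM in control libraries. Rpl26 had 211, 282 and 130 CPM in PRP libraries and 192, 138 and 118 CPM in control libraries. Rpl21 had 27.0, 16.5 and 26.9 CPM in PRP libraries and 44.1, 43.9 and 9.11 CPM in control libraries. The groups overlapped for all 3 of these genes, so that the highest and lowest fold changes among members, 0.59 ± 0.58 for Rpl34 and -0.46 ± 0.63 for Rpl21 (SE), lay within their error.

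**Figure D2:**
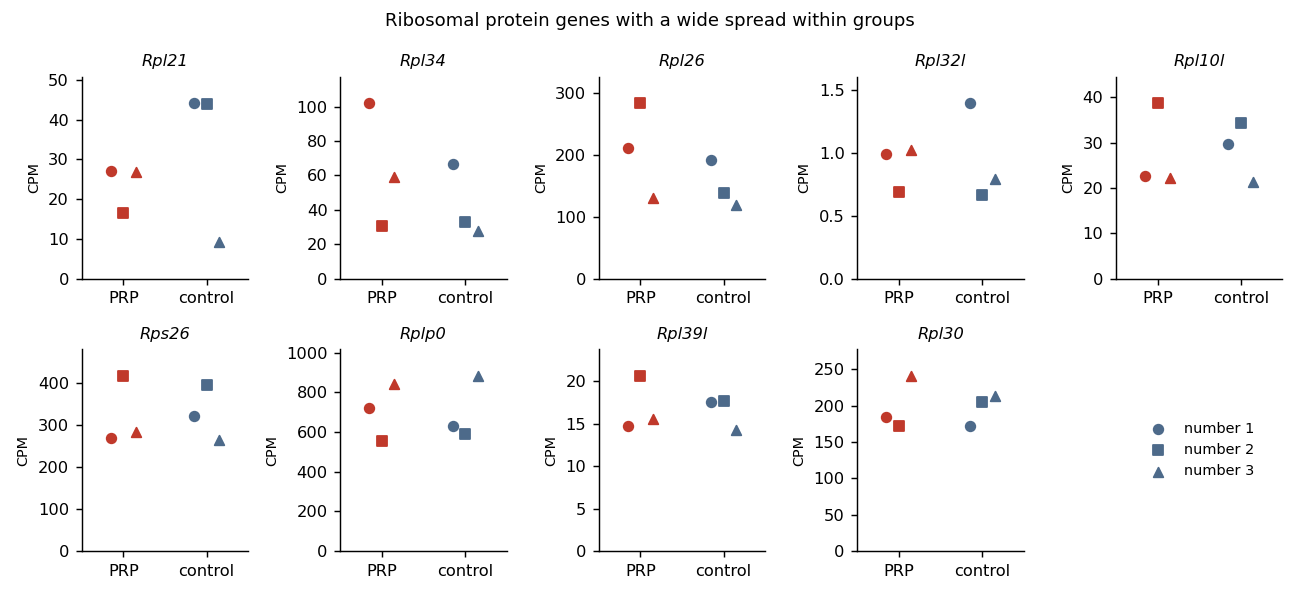
CPM (vertical axis, from 0) in the PRP and control libraries, with the replicate number by marker, for ribosomal protein genes with a wide spread within groups. Number 2 is the highest library of both groups in Rps26 and the lowest of both in Rplp0, and the groups overlap in every gene drawn.

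Ribosomal protein genes have many processed copies in the mouse genome, and the counting tool and its rule for reads that fit several places are not stated in the labels or the file. The members had a median of 5 annotated copies that matched at least 95% of bases over at least 80% of the coding sequence, with 57 for Rpl21, 32 for Rpl7a and 28 for Rpl29. Rpl21, which has the most, was among the lowest per kilobase, at 26.1 CPM per kb in PRP and 36.02 CPM per kb in control libraries. A processed copy of Rpl34 with a row of its own, Rpl34-ps1, had 98.8, 120.9 and 109.3 CPM in PRP libraries and 101.0, 123.0 and 129.7 CPM in control libraries, above Rpl34 itself in all but PRP 1. How far single members share reads with copies cannot be read from the counts, and single values are uncertain by that much. The 17 tested members with at least 10 copies had a median log2 fold change of 0.11 and the other 67 a median of 0.12. Of the 29 members free of overlap between groups, 10 have a span that overlaps another gene of the table, and for 6 of them that gene had over 1000 counts in all libraries together. These were Rpl18 (with Sphk2), Rpl19 (Cacnb1), Rpl24 (Zbtb11), Rpl31 (Tbc1d8), Rpl32 (Cand2) and Rps25 (Ccdc84).

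Ribosomal proteins are short, and short transcripts in general lay higher in PRP libraries. The members had a median transcript of 681 bases, against 2684 bases for the other genes. Among other genes, the median log2 fold change was 0.06 for transcripts up to 800 bases (1060 genes), 0.05 for over 800 and up to 1600 bases (2743 genes), 0.02 for over 1600 and up to 3200 bases (6085 genes) and -0.04 above 3200 bases (6350 genes). In the shortest class and the next, the 51 and 29 members had medians of 0.11 and 0.12. Other genes above 100 CPM with up to 1600 bases, 258 in number, had a median of 0.05. All PRP libraries lay above all control libraries for 7.36% of other genes up to 800 bases and for 8.02% of those in the next class.

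After correction of each library for GC content and length, the medians were 0.06 for the large subunit and 0.05 for the small subunit. The log2 fold change then lay above 0 for 44 large and 28 small subunit genes (49.3% of all genes), and 72 members in all. All PRP libraries then lay above all control libraries for 8 members, namely Rpl15, Rpl27a, Rpl31, Rpl5, Rpl7a, Rps20, Rps23 and Rps24 (3.27% of all genes). With the replicate block, 16 members had an unadjusted p under 0.05 and a higher level in PRP after the correction (4.27% of all genes), and 0 passed. The value of Rps20 depends here on its over-long transcript model. The correction was fitted on genes that included the members, so it could take up some of their own difference. The part of length in the difference was not tested further.

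**Figure D3:**
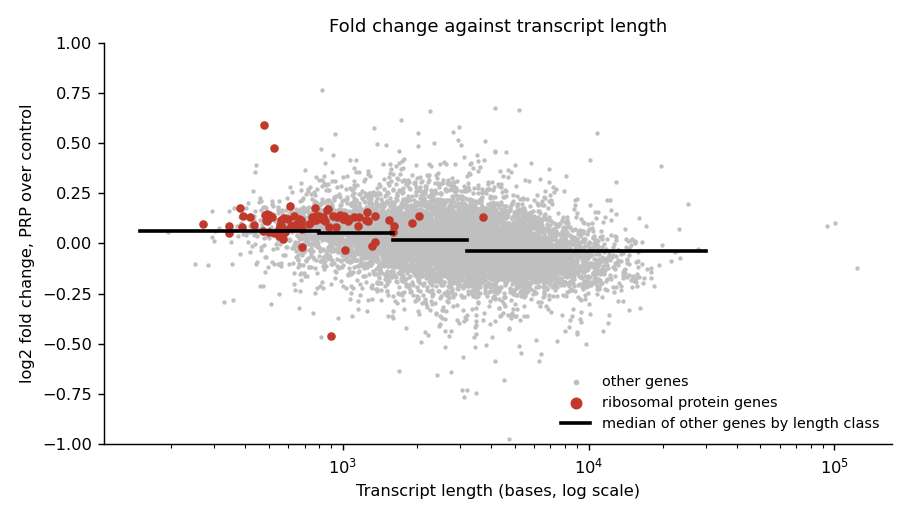
Log2 fold change of PRP over control (vertical axis) against transcript length in bases (horizontal axis, log scale) for genes with a mean log2 CPM above 3, with ribosomal protein genes marked and the median of all other tested genes in each length class as a line. Values beyond 1 in either direction, 5 genes, are not drawn; the class medians fall with length (0.06, 0.05, 0.02 and -0.04) and most ribosomal protein genes lie above them.

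Members with and without the pyrimidine run lay equally far from 0 at the median. The 29 tested members with a run starting within 5 bases of the annotated start had a median log2 fold change of 0.11. The 34 tested members without one had 0.11, and 14 and 7 genes were free of overlap between groups. The 21 tested members without a window had a median of 0.12, with 8 genes free of overlap, where all PRP libraries lay above all control libraries for 4.34% of all genes tested. Rpl35, Rpl15 and Rps10 carry a run and lay higher in every PRP library, and Rps6 carries a run and its groups overlapped.

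Genes around the ribosome were examined for comparison, with examples chosen after their values were seen. Fau, which encodes a ribosomal protein fused to a ubiquitin-like protein, had a log2 fold change of 0.18 ± 0.07 (SE) and no overlap between groups. Rack1, a scaffold on the small subunit, had 0.09 ± 0.07 (SE) with overlap, and neither gene passed. Of 21 other genes with TOP messenger RNAs, 18 lay above 0 (50.4% of all genes). For 3 of these 21 genes, every PRP library lay above every control library (4.34% of all genes). None of the 21 passed, and their median was 0.08. The host genes of small nucleolar RNAs among them included Zfas1, with 41.2, 35.3 and 36.4 CPM in PRP libraries and 29.97, 28.98 and 33.95 CPM in control libraries (0.28 ± 0.10, SE). The log2 fold changes of the others, Gas5, Snhg1, Snhg6, Snhg8 and Snhg12, were 0.16 ± 0.08, 0.06 ± 0.08, 0.10 ± 0.15, -0.09 ± 0.11 and 0.19 ± 0.13 (SE). The elongation factor gene Eef1a1, the most abundant of them, had 6757, 6112 and 6513 CPM in PRP libraries and 6348, 5848 and 6152 CPM in control libraries, which overlapped (0.08 ± 0.06, SE). After correction for GC content and length, the median of these 21 genes was 0.07.

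Of 14 genes that regulate TOP messenger RNAs or ribosome production, 5 lay above 0 (50.4% of all genes). None of the 14 passed, and their median log2 fold change was -0.02. Rps6kb1, an S6 kinase, had 67.6, 77.5 and 77.0 CPM in PRP libraries and 81.9, 86.5 and 82.4 CPM in control libraries (-0.18 ± 0.07, SE). Each PRP library lay below each control library, which held for 1 of the 14 genes and for 4.87% of all genes. After correction for GC content and length, its value was -0.08. Rps6kb2, another S6 kinase, had -0.01 ± 0.09 (SE). Larp1 and Mtor had -0.09 ± 0.09 and -0.06 ± 0.06 (SE). The values of these 14 genes ran between -0.38 ± 0.19 for Sesn2 and 0.22 ± 0.14 for Ddit4, both inhibitors of mTOR signalling, and Mycn had 0.18 ± 0.16 (SE). Myc, a transcription factor of ribosomal genes, had 0.03 ± 0.18 (SE). The 6 chaperones of ribosomal proteins, among them Grwd1 for Rpl3 and Tsr2 for Rps26, had a median of 0.01, and none passed.

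Marker sums of other cell types also differed between libraries. The 7 oocyte markers summed to 2259, 1562 and 1988 CPM in PRP 1 to 3, against 2010, 1446 and 1733 CPM in control 1 to 3. The 6 granulosa markers summed to 1238, 1084 and 1139 CPM in PRP libraries, against 1199, 1017 and 1067 CPM in control libraries, and the 5 stromal markers to 3307, 2791 and 3280 CPM in PRP libraries, against 2821, 2518 and 3220 CPM in control libraries. All 3 sums were higher in PRP within each replicate number, as were the ribosomal shares. The groups overlapped for each of these 3 sums, which they did not for the ribosomal shares. The 7 red blood cell markers summed to 225, 109 and 174 CPM in PRP libraries and 108, 144 and 1532 CPM in control libraries, control 3 standing apart. The 4 platelet markers, of mouse genes, summed to 6.84, 5.71 and 8.31 CPM in PRP libraries and 6.36, 5.04 and 4.83 CPM in control libraries. The platelet sum was also higher in PRP within each number, with overlapping groups. The 5 leukocyte markers summed to 35.5 to 46.0 CPM in PRP and 35.8 to 52.7 CPM in control libraries, and the 4 endothelial markers to 235 to 292 CPM in PRP and 251 to 291 CPM in control libraries. No marker was at 0 in every library, and the part of these differences in the ribosomal protein values was not tested.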

How the data were processed

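Values were the authors' deposited raw counts, in 1 table, from ovary libraries made with a SMARTER mRNA kit per the labels' protocols. The build was GRCm38/mm10, per the submitters' processing notes, and the aligner, counter, annotation and strand setting are not stated there or in the labels. Columns were matched to samples by title; the letters of the PRP 3 column are transposed, and no other sample lacked a column. Members and lists were chosen with earlier results of these data known, and some single-gene results are not reported here.

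All 17475 genes passing filterByExpr were fitted with TMM factors and edgeR 4.0.16's robust quasi-likelihood F test (R 4.3.3), two-sided, PRP over control, with Benjamini-Hochberg adjustment at 0.05. CPM use TMM library sizes. The procedure was tested on simulated data. Alternatives used limma 3.58.1 and DESeq2 1.42.0, other scalings and filters, a replicate block, leaving out each library, and natural-spline corrections for GC content and length. GENCODE M21 gave lengths, and RefSeq coordinates and start windows.

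Named genes were a fixed set of well-known members and paralogues. Per subunit, the 3 with the highest CPM per kb and the 6 with the smallest unpaired p were added. Other names are marked where used. Over all genes with a mean log2 CPM above 3, deviations from group means correlated at 0.49, 0.65 and 0.57 between same-number libraries. Other pairs gave -0.02 or below, but deviations within a group sum to 0, which by itself pushes these down. Over the members alone, same-number libraries gave 0.63, 0.28 and 0.16 and other pairs -0.34 to 0.05. For the blocked fit, the numbers were taken to pair libraries. The pairing comes from the data, since no label states it. SEs, intervals and p-values of single genes are from the unpaired fit unless marked as blocked. The block lowered the SE of genes that followed the number, to 0.05 from 0.21 for Rplp0 and to 0.07 from 0.21 for Rps26.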

Additional observations from a re-analysis of the deposited data

How the results depend on the processing

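No member passed under any alternative except Rpl21, with the replicate block and without replicate 3 (log2 fold change -1.05, edgeR adjusted p = 0.0483). In number 3, which that fit left out, Rpl21 was higher in PRP (log2 difference 1.56, against -0.70 and -1.41 in numbers 1 and 2). With all libraries, the blocked log2 fold change of Rpl21 was -0.27 ± 0.87 (SE). Members' calls were the same with and without the block otherwise. Genes passing numbered 0 unpaired, 21 with the replicate block, 17 with the block and GC and length correction, and 1 to 19 with the block leaving out a number (large subunit, 0 to 1). The large and small subunit medians were 0.056 and 0.046 after GC and length correction, 0.055 and 0.045 with the block as well, and 0.061 and 0.057 with length alone (chosen after seeing the data). Leaving out each library gave large subunit medians of 0.089 to 0.151 and small subunit medians of 0.086 to 0.144, and other scalings 0.12 to 0.13 and 0.11 to 0.12. Members with every PRP library above every control library numbered 29 (4.34% of all genes) and 8 after GC and length correction (3.27%). Leaving out a library gave 30 to 64 members (7.71% to 11.3% of all genes), the highest of both being without PRP 2. They numbered 24 to 32 under other scalings (4.33% to 4.72%) and 23 among members with under 10 copies (4.31%). These counts were added after seeing the data. After GC and length correction, 7 members moved to below 0: Rpl29 (-0.04), Rpl30 (-0.01), Rpl36al (-0.01), Rpl38 (-0.02), Rplp0 (-0.05), Rps13 (-0.00) and Rpsa (-0.00). The cause of these changes was not tested. Depth was even across libraries; 3 libraries a group limit what the test can call.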
